A study of Drosophila melanogaster with 9 samples.

Results

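Binding of KDM5 was compared between 2 ways of detecting the protein in unstressed flies: an HA tag on a transgene, and an antibody against the endogenous protein. The regions were those of the control anti-HA lists and of the wildtype anti-KDM5 list that lay on chromosome arms 2L, 2R, 3L, 3R, 4 and X. They were 5519 of 5886 peaks in control library 1, 4868 of 4919 in control library 2 and 8547 of 8948 in the wildtype library. Together they made 18934 of the 39296 peaks in the 6 lists of the series.

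All 3 libraries came from whole adult females aged 1 to 3 days, and each was made by chromatin immunoprecipitation followed by sequencing. The anti-HA flies had the genotype k6801/k6801;gHA-KDM5, in which an HA-tagged genomic rescue transgene supplies KDM5, and were fed 5% sucrose for 6 hours without paraquat. Wildtype flies were w1118, with no sucrose feeding recorded. Genotype, antibody and feeding therefore changed together between the tagged and the endogenous libraries, and their parts cannot be told apart. The peak calling settings are not given, but the lists differed in form. The shortest peak on the arms was 206 bp in the wildtype list and 100 bp in both control lists. The part of this difference in the results below was not tested. The labels do not say whether control libraries 1 and 2 came from separate batches of flies, and the wildtype library had no replicate. With 2 libraries against 1, permuting the libraries gives no p below 1 in 3, so no test was run and all shares below are descriptions. Sequencing depth is unknown, because peak lists carry no read totals. Intervals on shares are 95% Wilson intervals, which cover counting error over peaks only.

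KDM5 is a histone demethylase that removes methyl groups from lysine 4 of histone H3, and its substrate H3K4me3 is a mark found at the promoters of active genes. In Drosophila the family has a single member, also known as Little imaginal discs. The protein has domains that read histone tails and contact DNA beside its catalytic domain, and it is known to bind near transcription start sites. A peak summit is the position of the highest pileup, where pileup is the height of overlapping ChIP signal that the authors' peak caller gave. Pileups were whole numbers in the control lists and in 1.02% of wildtype peaks, so the wildtype values are scaled and are not on the scale of the control values.

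The first question was which endogenous KDM5 peaks the tagged protein also showed. Of the 8547 wildtype peaks, 3452, or 40.4% (39.4 to 41.4), overlapped a peak in both control lists. A further 459, or 5.37% (4.91 to 5.87), were found only by control library 1 and 261, or 3.05% (2.71 to 3.44), only by control library 2. The remaining 4375, or 51.2% (50.1 to 52.2), were found by neither. Each control library alone found a similar share, 45.8% (44.7 to 46.8) in library 1 and 43.4% (42.4 to 44.5) in library 2. The libraries largely found the same wildtype peaks, since 88.3% of those found by library 1 were also found by library 2 and 92.97% of those found by library 2 were also found by library 1.

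Strong wildtype peaks were found by both control lists and weak ones by neither. The wildtype peaks were ordered by pileup and split into 10 groups of 854 or 855, group 1 being the lowest. In group 10, with pileups of 325.65 to 361.34, 815 of 855 peaks, or 95.3% (93.7 to 96.5), were in both lists. In group 6, with pileups of 204.31 to 256.06, the share was 45.6% (42.2 to 48.9). It changed steeply around there, from 15.6% (13.3 to 18.1) in group 5 to 70.8% (67.6 to 73.7) in group 7. In group 1, with pileups of 50.86 to 67.81, 1 of 855 peaks was in both lists and 850 were in neither. Peaks found by 1 list lay mostly between these ends and made 21.9% of group 6, against 0.468% of group 1 and 3.04% of group 10.

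**Figure D1:**
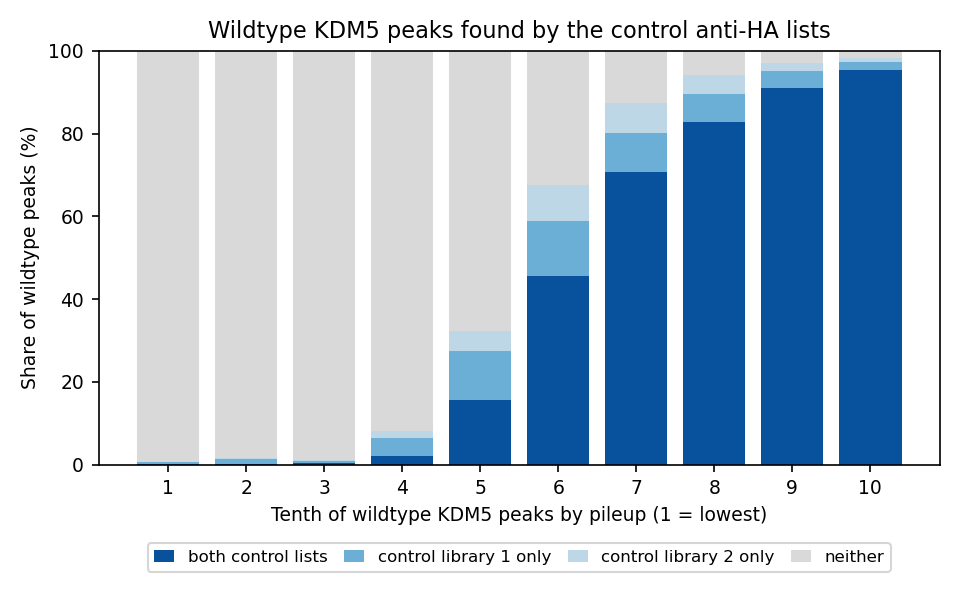
Share of wildtype KDM5 peaks on the arms (y axis, percent) found by both control anti-HA lists, by 1 of them or by neither, in 10 groups of rising wildtype pileup (x axis, 854 or 855 peaks each). The share found by both goes from 0.117% in group 1 to 95.3% in group 10.

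Widths and control pileups followed the same order. Wildtype peaks in both lists were 1092 bp wide at the median, with a median fold over local background of 8.76 as the authors' caller gave it. Those found only by library 1 had medians of 862 bp and 6.88, and those found only by library 2 had 1015 bp and 6.70. Those found by neither had 556 bp and 2.82. On the anti-HA side, the peaks of library 1 had a median pileup of 55 where library 2 also had a peak and 40 where it did not. In library 2 these medians were 48 and 38. Peaks seen by 1 control library were thus low in that library too, at median percentiles of 23.1 in library 1 and 30.7 in library 2 of their own lists.

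H3K4me3, mapped in wildtype flies in 1 library, was not used to form these classes. Its list resembled the control lists more than the wildtype KDM5 list in form. Its pileups were whole numbers, its shortest peak was 100 bp and its median width was 281 bp. Whether this likeness had a part in the shares below was not tested. An H3K4me3 peak overlapped 37.4% of all wildtype KDM5 peaks, 81.9% (80.6 to 83.2) of those in both control lists and 3.43% (2.93 to 4.01) of those in neither. Peaks found only by library 1 stood between, at 34.0% (29.8 to 38.4), and those found only by library 2 at 23.0% (18.3 to 28.5). The contrast was also present among wildtype peaks of like pileup, though width and fold of the classes were not matched within these groups. In group 7, 75.2% (71.6 to 78.5) of the 605 peaks in both lists held H3K4me3, against 14.8% (9.33 to 22.7) of the 108 in neither. In group 10 the shares were 96.4% (94.9 to 97.5) of 815 and 21.4% (7.57 to 47.6) of 14. In both groups the share was lower in the class without a tagged peak. The intervals cover counting error over peaks only and are not a test between libraries. In group 10 the lower share rests on 3 of 14 peaks.

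**Figure D2:**
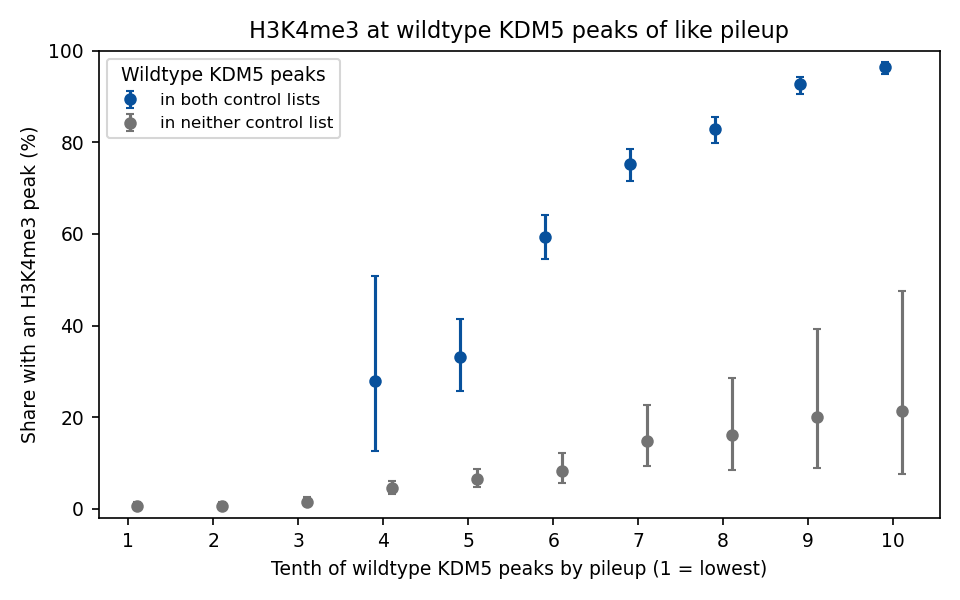
Share of wildtype KDM5 peaks that overlapped an H3K4me3 peak (y axis, percent, with 95% Wilson intervals) for peaks in both and in neither control anti-HA list, by group of wildtype pileup (x axis; points from fewer than 10 peaks not shown). In group 7 the values are 75.2% and 14.8%, and in group 10 they are 96.4% and 21.4%.

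The strongest wildtype peaks found by neither list were among the highest of the whole wildtype list. On 3R, the 2327 bp peak at dm3 positions 26032478 to 26034804 had a wildtype pileup of 352.42, percentile 99.6, and the nearest control peaks lay 72490 and 72526 bp away. On 3L, the 2231 bp peak at 749373 to 751603 had a pileup of 349.74 and the highest fold of these, 11.0, with the nearest control peaks 56558 and 56523 bp away. A 2R peak at 3718137 to 3720575 had a pileup of 347.96 and was the one of these 5 that overlapped H3K4me3, with 2 peaks. The fourth lay on 3L at 23087118 to 23088645 with a pileup of 342.61, and the fifth on chromosome 4 at 86649 to 87948 with a pileup of 341.71. The 2R peak was the closest of the 5 to a control peak, at 7061 bp from library 1 and 7153 bp from library 2, so none was a near miss of the overlap rule.

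Some of the weakest wildtype peaks were found by both lists. The lowest, on 2R at 11453229 to 11453579 with a wildtype pileup of 66.02, shared its control peaks with the neighbouring wildtype peak at 11452533 to 11453060, which had a pileup of 79.41. Control pileups there were 52 and 41, and the overlapping control summits lay outside the lower of the wildtype peaks. A 224 bp wildtype peak on 2L at 3872168 to 3872391 had a pileup of 92.79, percentile 24.9 of its list. Control pileups in it were 57 and 51, and control summits had offsets of -3 and 25 bp from the wildtype summit. The other 2 of the 5 lowest had smaller control pileups. On 2R at 14029633 to 14030055 the wildtype pileup was 80.3 and the control pileups were 35 and 35, and at 18069799 to 18070232 they were 98.14, 36 and 34, with summit offsets of 146 and 143 bp. The lowest pileups of the control lists on the arms were 30 and 27, so these stood near the floor of both lists.

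Chromosome 4 stood apart from the large arms. On those 5 arms the share of wildtype peaks in both control lists ran from 37.1% (34.8 to 39.5) on 2L to 42.7% (40.6 to 44.9) on 3R, and the X chromosome had 42.0% (39.5 to 44.6). On chromosome 4 it was 4.67% (2.01 to 10.5), or 5 of 107, against the 40.4% of all arms. The wildtype peaks there had a median pileup of 170.41, against 187.36 to 221.27 on the other arms. Among the 32 of its peaks in groups 7 to 10 of pileup, 5 were in both lists, or 15.6% (6.86 to 31.8), against 83.7% to 86.6% on the other arms. Control library 2 held 13 peaks on chromosome 4 and library 1 held 40, which limits how many wildtype peaks both could find. These low counts restate the low share, and their cause was not tested. In a stretch of 60.842 kb there, library 1 had 31 summits and library 2 had none.

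The second question was whether tagged and endogenous KDM5 had their summits at the same place. In 2027 wildtype peaks with exactly 1 summit of each control list, the median distance to the wildtype summit was 55 bp (interquartile range 26 to 99) in library 1 and 66 bp (32 to 112) in library 2. The summits of the control libraries lay 46 bp from each other (17 to 131) in the same peaks. The medians to wildtype were thus longer than the one between control libraries, by less than the spread among peaks. The summit of library 1 was nearer to library 2 than to wildtype in 991 peaks and nearer to wildtype in 1024. For library 2, 1141 summits were nearer to library 1 and 866 nearer to wildtype. No side was favoured along the chromosome, with median signed offsets of 1 and -1 bp and 50.3% and 49.4% of control summits on the side of higher coordinates. In all 3405 wildtype peaks with summits of both lists, the control summits nearest to the wildtype summit were taken. The medians there were 54 and 68 bp to wildtype and 51 bp between control libraries. Distances over 250 bp made 5.70% and 9.22% of those to wildtype and 9.54% of those between control libraries. Taking the nearest summit shortens the distances to wildtype but not those between control libraries, so these shares are not on equal terms. In the 2027 peaks, where no summit was chosen, the shares were 5.43% and 7.10% to wildtype and 5.48% between control libraries.

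Distances between the control libraries had a shoulder. They were over 100 and up to 200 bp apart in 463 of the 2027 peaks, or 22.8%, and in 312 of these, or 67.4%, the wildtype summit lay between them. Over all 2027 peaks, both control summits lay on the same side of the wildtype summit in 65.3%. Selecting summits far apart favours a wildtype summit between them, so the 67.4% follows in part from that selection. Within 100 bp were 67.4% of the distances between control libraries, 75.7% of those from library 1 to wildtype and 70.2% of those from library 2 to wildtype. Offsets were somewhat longer in wide wildtype peaks. From peaks of 600 bp or less to those over 1500 bp the medians went from 45 to 63 bp in library 1, from 46 to 83 bp in library 2, and from 37 to 69 bp between the control libraries.

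**Figure D3:**
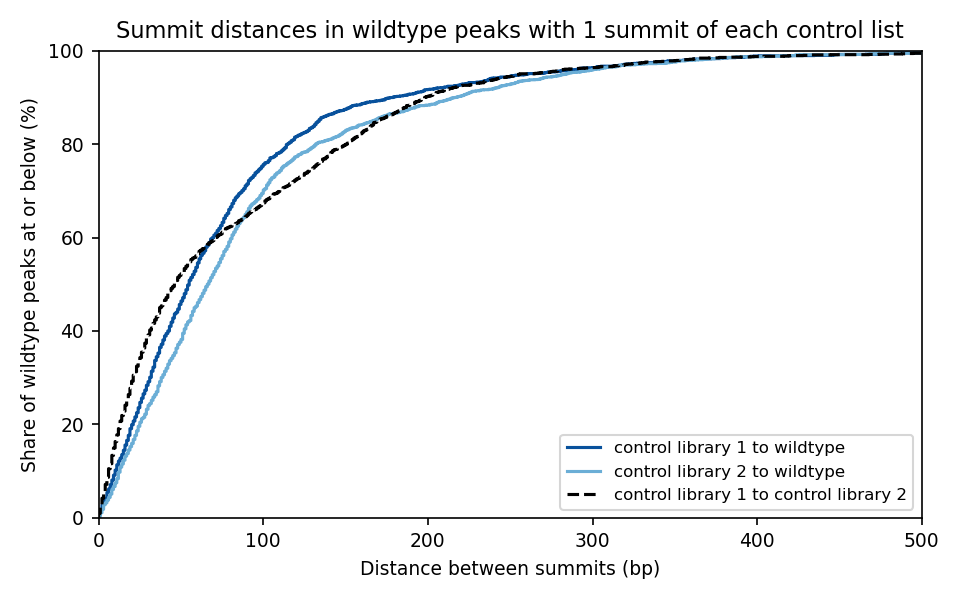
Cumulative share of 2027 wildtype KDM5 peaks (y axis, percent) by the distance between summits (x axis, bp) for each control library against wildtype and for the control libraries against each other. The medians are 55, 66 and 46 bp, and the dashed curve between control libraries is highest at 50 bp (52.2%) and lowest at 100 bp (67.4%).

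A small set of sites had tagged summits well away from the endogenous one. Both control summits lay over 250 bp from the wildtype summit in 56 of the 2027 peaks, and in 55 of these they lay on the same side. The control summits in the 56 peaks were a median of 21.5 bp from each other, and their mean position was a median of 341.5 bp from the wildtype summit. The displacements were thus present in both control libraries, but both offsets were taken from the same wildtype summit, which had no replicate. A shift of that summit alone would move both offsets alike, so they are not independent observations. Of all 2027 peaks, 65.3% had both offsets on the same side. Another 54 peaks had an offset over 250 bp in library 1 alone and 88 in library 2 alone, which did not recur. The 56 wildtype peaks had a median width of 1275.5 bp, against 977 bp for all 2027, and 78.6% overlapped H3K4me3, the same share as the 2027.

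Among the 44 displaced peaks with H3K4me3 and both control summits on 1 side, the nearest H3K4me3 summit was closer to the midpoint of the tagged summits in 28 and closer to the wildtype summit in 16. Median distances were 66.5 and 142.5 bp. In all 1593 peaks with 1 summit of each control list and H3K4me3, displaced or not, the counts were 757 and 830 and the medians 67.5 and 65 bp. These are counts in 1 H3K4me3 library and were not tested.

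The largest displacement shared by the control libraries was in a 3221 bp wildtype peak on 2R at 2517523 to 2520743. Its wildtype summit was at 2519579, and the control summits lay 894 and 912 bp to the side of higher coordinates, 18 bp apart. A 2377 bp peak on 3L at 542231 to 544607 had its control summits at offsets of -477 and -479 bp, the negative sign meaning lower coordinates, and 2 bp apart. Another on 3L, at 14045624 to 14046966, had offsets of -477 and -468 bp. The 3R peak at 27572051 to 27574770 had offsets of -446 and -409 bp, and the 2R peak at 10391362 to 10392503 had -415 and -424 bp. These 5 were chosen among peaks with control summits within 50 bp of each other, so their closeness was fixed by that choice.

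The third question was how often several tagged summits fell within 1 endogenous peak. Of the wildtype peaks that held a summit of library 1, 1115 of 3905, or 28.6% (27.2 to 30.0), held 2 or more, and the highest number was 9. In library 2 it was 898 of 3650, or 24.6% (23.2 to 26.0), with a highest number of 7. The mean share was 26.6% ± 2.79 (SD, n = 2). Control and wildtype peaks differed in width, with medians of 329 and 307 bp in the control lists and 841 bp in the wildtype list, and the shortest peaks were 100, 100 and 206 bp. The reverse was rare, since 4 peaks of library 1 and 39 of library 2 reached across 2 wildtype peaks.

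Wide wildtype peaks held several summits most often. Among those of 600 bp or less the share was 2.11% (0.721 to 6.03) in library 1 and 3.67% (1.44 to 9.06) in library 2. Over 900 and up to 1200 bp it was 15.3% (13.4 to 17.4) and 13.0% (11.2 to 15.0). Over 2000 bp it was 82.4% (78.8 to 85.5) and 67.6% (63.3 to 71.6), so the libraries differed most in the widest peaks.

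**Figure D4:**
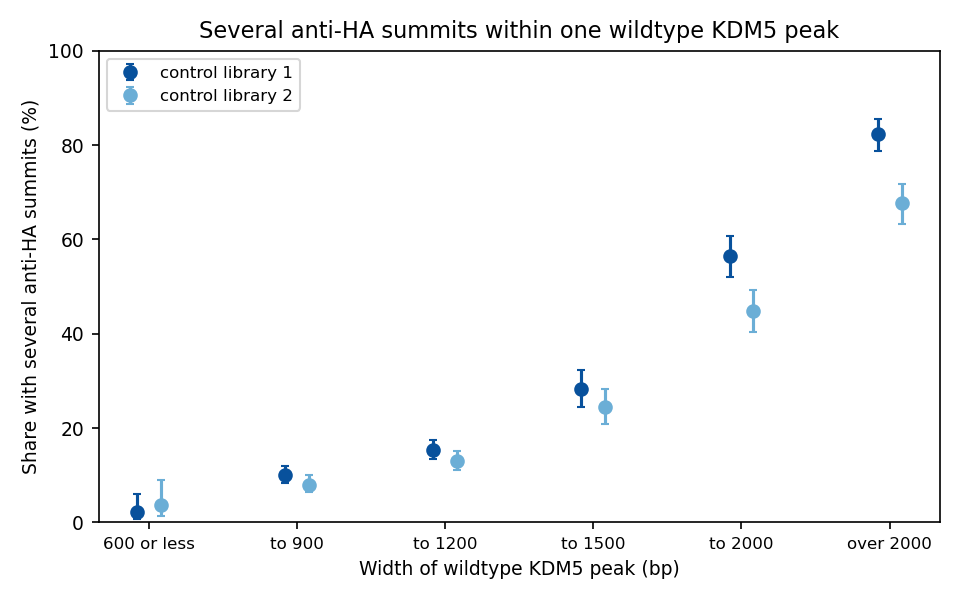
Share of wildtype KDM5 peaks with 2 or more summits of a control library, of those with at least 1 (y axis, percent, with 95% Wilson intervals), by width of the wildtype peak (x axis, bp; each class starts above the one before). It rises from 2.11% and 3.67% in the narrowest class to 82.4% and 67.6% in the widest.

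Control libraries agreed on the number of summits mainly where each had 1. The number was the same in 2368 of 3405 wildtype peaks with summits of both, or 69.5%, and 2027 of these held 1 of each. It was higher in library 1 in 642 and higher in library 2 in 395. Several summits were present in both libraries in 559 peaks, in library 1 alone in 511 and in library 2 alone in 308. Where a library had several summits, 44.6% of them in library 1 and 50.3% in library 2 had one of the other library within 100 bp. For lone summits these shares were 57.5% and 63.6%.

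Where exactly 2 summits lay in a wildtype peak, 1 was near the wildtype summit and the other some way off at the median. The summits were ordered by that distance, so part of this contrast is fixed by the ordering. In 853 such peaks of library 1 the nearer summit was a median of 48 bp and the farther 495 bp from the wildtype summit. In 730 peaks of library 2 the medians were 65 and 433 bp. They lay on both sides of the wildtype summit in 54.4% (51.0 to 57.7) and 57.7% (54.1 to 61.2) of the peaks. The nearer summit had the higher pileup in 626 of 853 and 496 of 730, so the wildtype summit mostly sat nearer to the stronger of the tagged ones. Neighbouring summits were a median of 501.5 bp apart in library 1 (interquartile range 330.75 to 666) and 442 bp in library 2 (299 to 606).

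Peaks with more tagged summits also overlapped more H3K4me3 peaks. Wildtype peaks with at least 1 summit of each library, and exactly 1 in the library with fewer, held a mean of 0.931 H3K4me3 peaks. With 2, 3 and at least 4 summits in the library with fewer, the means were 1.69, 2.23 and 3.92, in 482, 64 and 13 peaks. Median widths rose as well, from 1027 to 1987, 2589.5 and 3848 bp. Per kb of wildtype peak the numbers were 0.810, 0.842, 0.834 and 0.987, so the density changed little while the number grew with width.

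The peak with most tagged summits lay on X at 7826054 to 7832621, the widest wildtype peak at 6568 bp, with 9 summits of library 1, 5 of library 2 and 7 H3K4me3 peaks. Another X peak, at 547767 to 551392, held 7 and 5 control summits and 4 H3K4me3 peaks. On 2R the peak at 10057899 to 10062380 held 5 and 7 control summits and 4 H3K4me3 peaks. On 2L the peak at 2766225 to 2770799 held 5 and 6, with 8 H3K4me3 peaks, and the one at 5522891 to 5527831 held 5 and 4, with 4. All 5 were at least 3626 bp wide, and the library with more summits was not the same throughout.

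The fourth question was whether sites high in one assay were high in the other. Pileups were ranked within the 3452 wildtype peaks found by both lists, taking the highest control peak in each, and given as percentiles of that set. The rank correlation across peaks (Spearman's, a description across sites that are not independent) was 0.40 between library 1 and wildtype and 0.33 between library 2 and wildtype. The mean was 0.37 ± 0.051 (SD, n = 2). Between the control libraries it was 0.71 over the same peaks. The 345 highest peaks of each library were 9.99% of the 3452, the share that unrelated orders would have in common on average. Of these, 58 were shared by library 1 and wildtype, or 16.8%, and 51 by library 2 and wildtype, or 14.8%. The control libraries shared 192, or 55.7%.

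**Figure D5:**
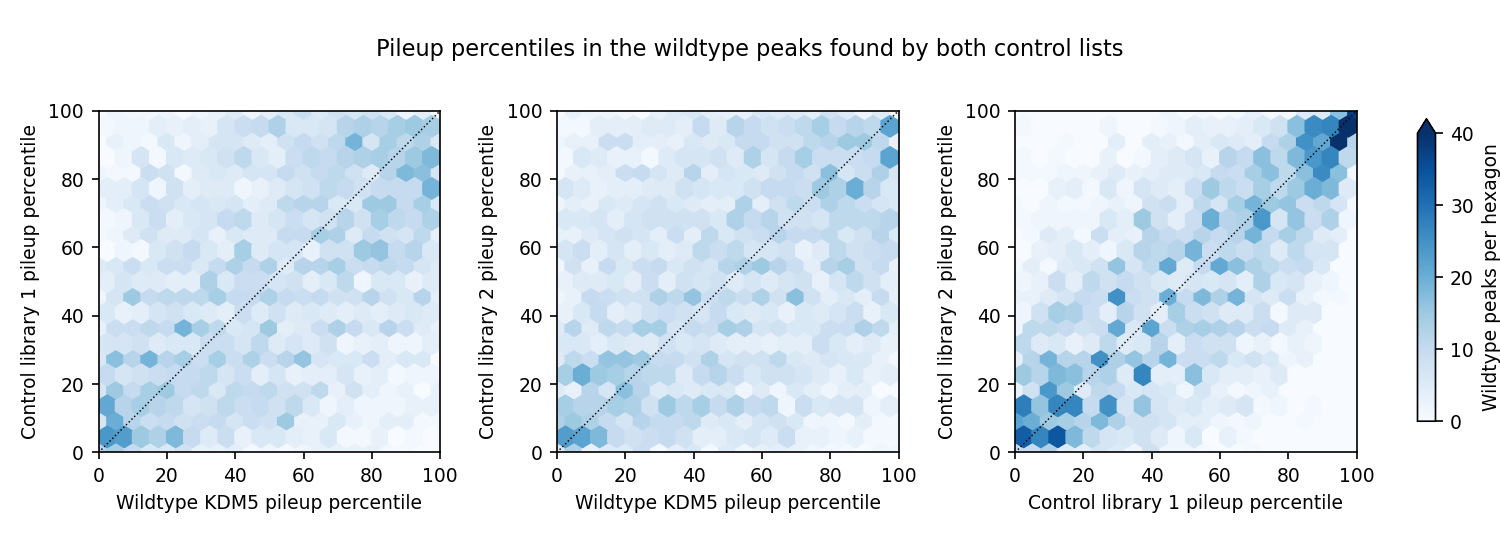
Pileup percentiles of the 3452 wildtype KDM5 peaks found by both control lists, for library 1 against wildtype, library 2 against wildtype and library 2 against library 1 (axes in percentiles of the set, colour for peaks per hexagon, dotted line for equal percentiles). The spread about the line is wide against wildtype (rank correlation 0.40 and 0.33) and narrower between control libraries (rank correlation 0.71).

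Control pileups were higher where wildtype pileups were higher. Of 5 groups by wildtype pileup, the lowest had median control pileups of 47 in library 1 and 41 in library 2, and the highest had 62 and 54. Each group was broad: in the highest, the middle 50% of library 1 percentiles ran from 47.1 to 84.3. The wildtype pileups were also compressed, with a 90th percentile 1.42 times the 10th, against 1.88 times in library 1 and 1.97 times in library 2. In the upper 3 of 4 groups by wildtype pileup, where that ratio was 1.05 to 1.08, the rank correlation against wildtype was 0.053 to 0.11 in both libraries, while the rank correlation between control libraries was 0.65 to 0.72. In the lowest of the 4 groups, with a ratio of 1.51, the rank correlation was 0.20 and 0.15 against wildtype and 0.59 between control libraries. The part that the compression of wildtype pileups had in the rank agreement was not tested. When all 8547 wildtype peaks entered and absent control peaks ranked lowest, the rank correlation was 0.80 and 0.78 against wildtype and 0.89 between control libraries.

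Percentiles differed by over 25 points between library 1 and wildtype in 41.1% of the peaks, between library 2 and wildtype in 44.4%, and between control libraries in 24.2%. Both control libraries stood over 25 points above wildtype in 489 peaks, or 14.2%, and over 25 points below it in 485, or 14%. In 12 peaks the libraries stood over 25 points from wildtype on opposite sides. Both differences were taken from the same wildtype percentile, so these counts do not show independent agreement of the control libraries. Of the 489 peaks that ranked higher in the control libraries 91.4% (88.6 to 93.6) overlapped H3K4me3, against 81.6% (78.0 to 84.8) of the 485 that ranked lower and 81.9% of all 3452. Their median widths were 1020, 1136 and 1092 bp.

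The largest excess of control over wildtype percentile was on 2L at 19581637 to 19582448. Control pileups there were 108 and 91, percentiles 99.5 and 98.5, while the wildtype pileup of 182.9 stood at percentile 2.78. In the full wildtype list that pileup stood at percentile 46.6. Such differences are in rank and do not measure amounts of tagged or endogenous protein. This peak had no H3K4me3 and its control summits lay 267 and 302 bp from the wildtype summit. On 3R the peak at 22013631 to 22014585 had control pileups of 91 and 110, percentiles 97.6 and 99.7, and a wildtype percentile of 5.24. The 2R peak at 17860596 to 17861442 had pileups of 107 and 116 in the control libraries and a wildtype percentile of 10.4, with summit offsets of -16 and 10 bp. On 3L the peak at 21020898 to 21022034 had control pileups of 107 and 92, and on 3R the one at 1493983 to 1495149 had 75 and 78. The last 4 all overlapped H3K4me3.

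The largest deficit of control against wildtype percentile was at the 2L peak at 21680458 to 21682219. Its wildtype pileup of 352.42 stood at percentile 99.2, while the control pileups of 42 and 33 stood at 12.4 and 5.00. On 2R the peak at 18495918 to 18496804 had a wildtype pileup of 344.39 and control pileups of 42 and 31. The 3 others lay on 2L. Control pileups were 44 and 31 at 8041206 to 8043007, 34 and 35 at 3713210 to 3714597, and 43 and 31 at 5070949 to 5072073. The wildtype peak at 3713210 was high by pileup, at 338.14, but not by fold, at 4.40, which was below the lower quartile of 7.64 for peaks in both lists. Of these 5 peaks, 2 overlapped H3K4me3.

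Some sites were high with both methods. The highest mean percentile was on 3R at 5415817 to 5416816, with pileups of 96 and 89 in the control libraries and 347.07 in wildtype, and percentiles of 98.4, 98.2 and 97.4. Its control summits lay 38 and 52 bp from the wildtype summit. The next, a 3114 bp peak on X at 11243010 to 11246123, had pileups of 91, 85 and 348.85 in the same order with 2 and 3 control summits. A 2R peak at 10644004 to 10645414 had pileups of 102, 80 and 346.17. The remaining 2 were on 3R, at 1604923 to 1606066 with pileups of 92, 83 and 346.17 and at 6155540 to 6158321 with pileups of 80, 96 and 353.31. All 5 overlapped H3K4me3.

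Few tagged peaks lacked an endogenous one that overlapped by at least 1 bp. No wildtype peak overlapped 133 of the 5519 peaks of library 1, or 2.41% (2.04 to 2.85), and 37 of the 4868 of library 2, or 0.760% (0.552 to 1.05). The mean was 1.58% ± 1.17 (SD, n = 2), so the spread between libraries was nearly as large as the share. The peaks without overlap were narrow, with medians of 148 and 123 bp, and low in fold, at 2.34 and 2.58. H3K4me3 overlapped 14.3% (9.34 to 21.2) and 18.9% (9.48 to 34.2) of them, against 65.9% and 68.7% of all peaks of these libraries on the arms. With summits within 250 bp required in place of overlap, 30.4% and 27.6% were unmatched, and with 50% of both intervals 83.3% and 85.4%. The peaks without overlap mostly did not recur: 1 site was in both libraries, on X at 17317653 to 17317800, with pileups of 37 and 32.

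In library 1 many of these peaks were crowded, with 42 of the 133 in 4 runs of at least 5, each summit within 100 kb of the next. The largest run held 16 peaks over 60.842 kb of chromosome 4, at 1284293 to 1345134, where library 1 had 31 summits, wildtype 15 and library 2 none. Another held 11 peaks over 13.135 kb of 3R at 26312992 to 26326126, and the next held 9 over 6.761 kb of 2R at 937367 to 944127. The last held 6 over 2.542 kb of X at 6467 to 9008. Library 2 and wildtype had no summit in the stretches on 3R, 2R and X. Without the 42 peaks the share in library 1 was 1.66% (1.36 to 2.04), and all 16 unmatched peaks of chromosome 4 were in the run there.

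The unmatched peaks of library 2 were mostly beside a wildtype peak. Of the 37, 26 lay within 1000 bp of one, with a median gap of 149 bp. In library 1, 33 of 133 did, with a median gap of 7712 bp. On X lay 18 of the 37, or 2.02% (1.28 to 3.17) of the X peaks of library 2, against 0.478% of its peaks elsewhere. Library 1 had 2.69% (1.84 to 3.91) on X, where its run of 6 peaks is included. Its shares were 1.05% to 2.45% on 2L, 2R, 3L and 3R, and 40% on chromosome 4.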

How the data were processed

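CASAVA 1.4, Bowtie, MACS2 and build dm3 are the names in the submitters' processing notes. For caller settings and for the input behind each library, the entry is: not given in the sources used here. Size selection kept 150 to 350 bp, as the labels' protocols state. Each deposited list belongs to 1 library. Each deposited row holds a pileup signal at the summit, the −log10 of a p-value and of a q-value, and a fold ratio over local background, all the authors' values, with widths and summits in other columns. The weakest deposited q-values were 0.0490 to 0.0498. Pileups were whole numbers in the control lists and in 1.02% of wildtype peaks, so heights were compared by rank.

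Of 6 deposited lists, 4 were used, and the paraquat lists were left out. Overlap meant at least 1 bp. A summit was inside a wildtype peak by position, and the nearest one gave the offset. Positions count from 1. Analysis used Python 3.11.15, pandas 2.3.3 and scipy 1.17.1, and functions were tested on simulated peaks. Named peaks were the 5 highest by each stated order (mean percentile, summits, wildtype pileup in neither list, excess, deficit, displacement with control summits within 50 bp), and the 5 lowest by wildtype pileup in both lists. Members and lists were chosen with earlier results of these data known. Genes and sequences of the dm3 build were not used here.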

Additional observations from a re-analysis of the deposited data

How the results depend on the processing

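Of 62 alternative values, 30 moved by less than the spread between control libraries or, for classes, stayed within the counting interval, and 32 moved further. The planned summit offsets were 54 and 68 bp, and all 12 alternatives were among the 30. These 12 include the 55 and 66 bp of peaks with 1 summit of each control list, a setting that was not planned. Requiring 50% of both intervals put 5.00% of wildtype peaks in both lists, 9.11% in 1 and 85.9% in neither, and left 83.3% and 85.4% of the peaks of libraries 1 and 2 unmatched; control peaks were narrower, with medians of 329 and 307 bp against 841 bp. Summits within 250 bp gave 35.0%, 12.2% and 52.8%, with 30.4% and 27.6% unmatched. With the upper 50% of each control list the classes were 22.5%, 10.6% and 66.9%, the share with several summits 11.8% and 7.73%, and the rank correlation 0.21 and 0.11; 0.851% of library 1 and 0.246% of library 2 were unmatched, the latter counted among the 30 because the spread between libraries exceeds it. With the upper 50% of the wildtype list the classes were 77.1%, 11.7% and 11.1%, and 8.61% and 5.63% were unmatched. Separate summits over 250 bp apart gave 25.5% and 20.8% with several. A lone control library found 43.4% to 45.8% of wildtype peaks and missed 54.2% to 56.6%, and the rank correlation over its own peaks was 0.48 in library 1 (0.36 to 0.48 over both). The rank correlation over all wildtype peaks with absent peaks lowest, an alternative chosen after seeing the data, was 0.80 and 0.78. Causes were not tested. No paired analysis was possible because 1 wildtype library faced 2 control libraries. Depth is unknown, so a control peak too weak to be called cannot be told apart from an absent one.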
